A study of Homo sapiens with 6 samples.

Results

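WDR76, FAM111B and ZNF367 are 3 genes of less known function, of 11886 genes listed in all 6 libraries of the series. They were chosen by their measured response, as genes with some of the largest rises under siRNA against E2F7, so their ratios between the arms are given below as a description with no test. WDR76 encodes a WD40-repeat protein that serves as a substrate receptor of the CUL4-DDB1 ubiquitin ligase. FAM111B encodes a trypsin-like protease, the paralog of the replication-associated protease FAM111A. ZNF367 encodes a C2H2 zinc finger protein.

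E2F transcription factors drive the genes that a cell needs to enter and pass through S phase. E2F7 is an atypical E2F that binds DNA without a DP partner and represses such genes, and its own transcription is driven by E2F1. The series asks which transcripts respond when E2F7 is depleted.

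The cells were U2OS, an established human osteosarcoma line, in both arms. One arm carried siRNA against E2F7 (siE2F7) and the other a control siRNA without a target (siNT). Per the labels' protocols all cells were blocked at the G1/S border with 4 mM hydroxyurea for 24 h and then released into medium without it, and RNA was taken at 0 h (G1/S), 3 h (S phase) and 12 h (G2/M border). Each arm and time had 1 library, so a ratio at 1 time sets 1 library against 1 and has no replicate check. Nothing in the labels says that the times were separate experiments, and how many siRNA sequences were used per target is not given in the sources used here.

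The values are FPKM, fragments scaled to the length of the transcript and to the mapped fragments of the library, as the authors deposited them. The libraries listed 12299 to 12799 genes, with medians of 10.07 to 10.61 FPKM; counts are not in these tables, so depth and counting error are unknown. E2F7 stood at 9.48, 10.6 and 5.52 FPKM in siE2F7 at 0, 3 and 12 h, against 20.3, 29.4 and 16.6 FPKM in siNT, which matches each label. Of 8 osteoblast and mesenchymal markers 7 were listed, with summed levels of 1543 to 1623 FPKM in siE2F7 and 1596 to 1691 FPKM in siNT. The 3 listed epithelial markers of 4 summed to 7.33 to 9.59 FPKM in siE2F7 and to 7.15 to 10.7 FPKM in siNT, and of 4 blood markers LAPTM5 alone was listed, at 0.937 to 1.79 FPKM in siE2F7 and 1.65 to 2.47 FPKM in siNT.

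WDR76 lies at chr15:44119112-44160617 of hg19 (start counted from 1). Its longest protein-coding transcript in GENCODE 29, an annotation on GRCh38, has 13 exons and 3978 bases. WDR76 stood at 19.6, 24.4 and 16.2 FPKM in siE2F7 at 0, 3 and 12 h, against 7.03, 5.76 and 2.07 FPKM in siNT. The lowest siE2F7 library was 2.30-fold above the highest siNT library, so the arms did not overlap. It was the least abundant of the 3 genes in every library. In the siNT library of 12 h, 9.1% of listed genes had a lower FPKM than WDR76, while in the siE2F7 library of that time 63.8% did. The siE2F7 over siNT fold was 2.78 at 0 h, 4.23 at 3 h and 7.83 at 12 h.

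FAM111B lies at chr11:58874658-58894888 of hg19, and its longest coding transcript in GENCODE 29 has 4 exons and 3488 bases. FAM111B stood at 127, 112 and 59.3 FPKM in siE2F7 at 0, 3 and 12 h, against 48.3, 26.6 and 8.19 FPKM in siNT. It was the most abundant of the 3 genes in every library. The arms came close to each other, since the lowest siE2F7 library (12 h) was 1.23-fold above the highest siNT library (0 h). The fold at equal times was 2.63 at 0 h, 4.21 at 3 h and 7.23 at 12 h.

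ZNF367 lies at chr9:99148225-99180669 of hg19, on the minus strand, and its 1 transcript in GENCODE 29 has 5 exons and 3646 bases. ZNF367 stood at 48.6, 60.1 and 38.2 FPKM in siE2F7 at 0, 3 and 12 h, against 16.0, 14.5 and 6.80 FPKM in siNT. The lowest siE2F7 library was 2.39-fold above the highest siNT library. The fold was 3.04 at 0 h, 4.15 at 3 h and 5.62 at 12 h, so of the 3 genes ZNF367 had the highest fold at 0 h and the lowest at 3 and 12 h. The plot of levels by library shows the gap between the arms in each gene.

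**Figure D1:**
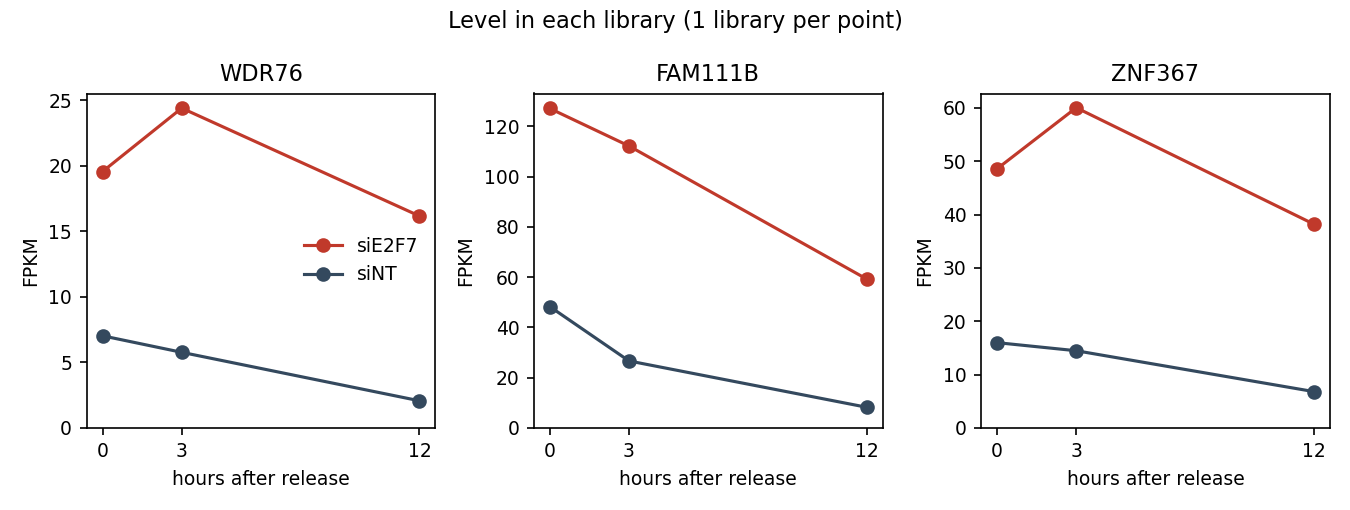
FPKM (y axis, from 0) of WDR76, FAM111B and ZNF367 against hours after release (x axis) in siE2F7 (red) and siNT (dark), 1 library per point. Every siE2F7 point lies above every siNT point of the same gene, most narrowly in FAM111B (59.3 against 48.3 FPKM).

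Of the 3 genes ZNF367 alone had a promoter window in the set used here. Its promoter is printed and was searched for 3 kinds of cell cycle promoter element. The window runs from 250 bases before to 50 bases after the gene's start in RefSeq (GRCh38.p14, chr9:96418321-96418620, minus strand, shown 5′ to 3′ in the direction of transcription). Searched on both strands were the E2F element in the 8-letter forms TTTCGCGC, TTTGGCGC, TTTCCCGC and TTTGCCGC, the cell cycle homology region (CHR, bound by the MuvB complexes that act in the cell cycle) as TTTGAA or TTCGAA, and the CCAAT box, bound by NF-Y. Capitals mark the matches. The set holds no RefSeq window for WDR76 or FAM111B, so their promoters were not searched.
ZNF367: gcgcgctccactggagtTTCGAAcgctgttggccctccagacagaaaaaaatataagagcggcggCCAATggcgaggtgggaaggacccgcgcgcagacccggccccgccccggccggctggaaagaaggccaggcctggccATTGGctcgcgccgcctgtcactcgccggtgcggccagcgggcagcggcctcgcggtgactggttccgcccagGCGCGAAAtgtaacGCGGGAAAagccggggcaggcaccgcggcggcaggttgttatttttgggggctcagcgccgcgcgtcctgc
The window held 2 E2F matches on the reverse strand, GCGCGAAA at -35 to -28 and GCGGGAAA at -21 to -14 from the start. It also held 1 CHR match at -233 to -228 and 2 CCAAT matches, at -185 to -181 and at -108 to -104, none of which overlap. Of all 35116 windows of this length in the table, 3.32% held an E2F match, 16.4% a CHR match and 34.6% a CCAAT match. At least 2 E2F matches were found in 51 windows (0.145%), and all 3 kinds of element in 63 (0.179%). Counted by gene over all windows of a gene, 6.88% of the 8266 tested genes that had a window held an E2F match, against 3.99% of all 27305 genes in the table. A CHR match was held by 15.3% of these tested genes, against 19.5% of all, and a CCAAT match by 43.6%, against 39.7% of all. The 8266 are 69.5% of the genes tested, so their shares describe these alone. A match describes the letters and does not show that a factor binds there.

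Set beside all other genes, the 3 had some of the highest ratios, which is how they were chosen. The mean log2 ratio over the 3 times, on log2(FPKM + 0.1), was 2.15 ± 0.73 for WDR76, 2.10 ± 0.72 for FAM111B and 2.04 ± 0.44 for ZNF367 (SD, n = 3 times). Entries whose symbols begin as those of small RNAs, and some LOC entries, were left out of the ranking. Among the remaining 11602 genes averaging 1 FPKM or more, the 3 took places 4, 5 and 6. Just above stood MCM6, a subunit of the replicative helicase, at 2.27 ± 0.68, and just below TMEFF1, a transmembrane protein whose locus is shared with other entries, at 2.01 ± 0.34 (SD). All 3 were at least 2-fold higher in siE2F7 at each time. So were 1.21% of the genes listed at 0 h, while the share was 1.35% at 3 h and 1.77% at 12 h. In 6.88% of genes every siE2F7 library lay above every siNT library. The 3 means differed among themselves by less than the SD of each. That SD spans times between which the ratios changed, so it does not measure replicate error.

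The ratio of all 3 genes was smallest at 0 h and largest at 12 h. On the log2 scale it was 1.46, 2.06 and 2.91 for WDR76 at 0, 3 and 12 h, 1.40, 2.07 and 2.84 for FAM111B, and 1.60, 2.05 and 2.47 for ZNF367. At 3 h the 3 genes had nearly the same ratio. Between 0 and 12 h the ratio grew by 1.45 in WDR76, 1.44 in FAM111B and 0.88 in ZNF367, against a median of -0.01 over all genes. Growth was not limited to the 3, as its median was 0.392 in the S phase list and 0.285 in the G2/M list set out below. These values rest on the same libraries that chose the genes and have no replicate.

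Genes of S phase and of mitosis were set beside the 3, from a pair of lists in common use for scoring cell cycle phase in single cells. Of 42 measured genes of the S phase list (WDR76, itself on that list, left out), 39 rose and 1 fell, with a median log2 ratio of 0.70 (limma with Benjamini-Hochberg adjustment at 0.05 over all genes). Over all genes 6.76% rose and 7.13% fell, with a median of -0.03. Without time as a block 15 genes rose and 17 fell in all, and of the S phase list 5 rose. Highest on the list were MCM6, CDCA7, MCM5, E2F8 and GINS2. CDCA7, which works with the chromatin remodeller HELLS, rose by 1.89 ± 0.17 (SE, adjusted p = 0.0014), and GINS2, a helicase subunit, by 1.56 ± 0.13 (adjusted p = 0.0011). At the low end GMNN, the licensing inhibitor geminin, fell by 0.55 ± 0.09 (adjusted p = 0.011), a call that ended without the variance trend (adjusted p = 0.050). RAD51AP1 and CLSPN did not pass, at 0.21 ± 0.08 and 0.23 ± 0.08 (adjusted p = 0.12 and 0.11). FEN1 and DTL, at 0.29 ± 0.07 and 0.30 ± 0.07 (adjusted p = 0.034 and 0.026), lost their calls with any single time removed (adjusted p = 0.059 to 0.14 and 0.068 to 0.097), and DTL shares its locus with INTS7. Of the S phase list, MCM6 alone had a mean ratio above that of ZNF367. The 3 genes were chosen for high ratios, so their place above a list follows from that choice.

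Of 54 measured genes of the G2/M list, 19 rose (35.2%) and 0 fell, with a median of 0.23, and 35 did not pass. Over all genes 6.76% rose and 7.13% fell. Unadjusted, 32 of the 54 were under 0.05, as were 3592 of all 11886 genes. NUSAP1, a spindle protein, was highest at 0.66 ± 0.11 (limma, adjusted p = 0.0089), followed by HMGB2, MKI67, FAM64A and ANP32E. None of the 54 had a mean ratio as high as that of any of the 3 genes, which were chosen for high ratios. Lowest stood AURKA, CDC20, G2E3, CKS1B and CENPE, which did not pass (-0.23 to -0.05, adjusted p = 0.16 to 0.83); AURKA was called lower without 12 h (adjusted p = 0.029). Without 12 h or without 3 h the count that rose was 8 in each case. At 0, 3 and 12 h the median ratio was 0.53, 0.76 and 0.83 in the S phase list and 0.07, 0.21 and 0.38 in the G2/M list. The RNA is from whole cultures, so more cells in S phase and more transcript per cell cannot be told apart. The part that a shift in phase between the arms has in the ratios of WDR76, FAM111B and ZNF367 was not tested.

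**Figure D2:**
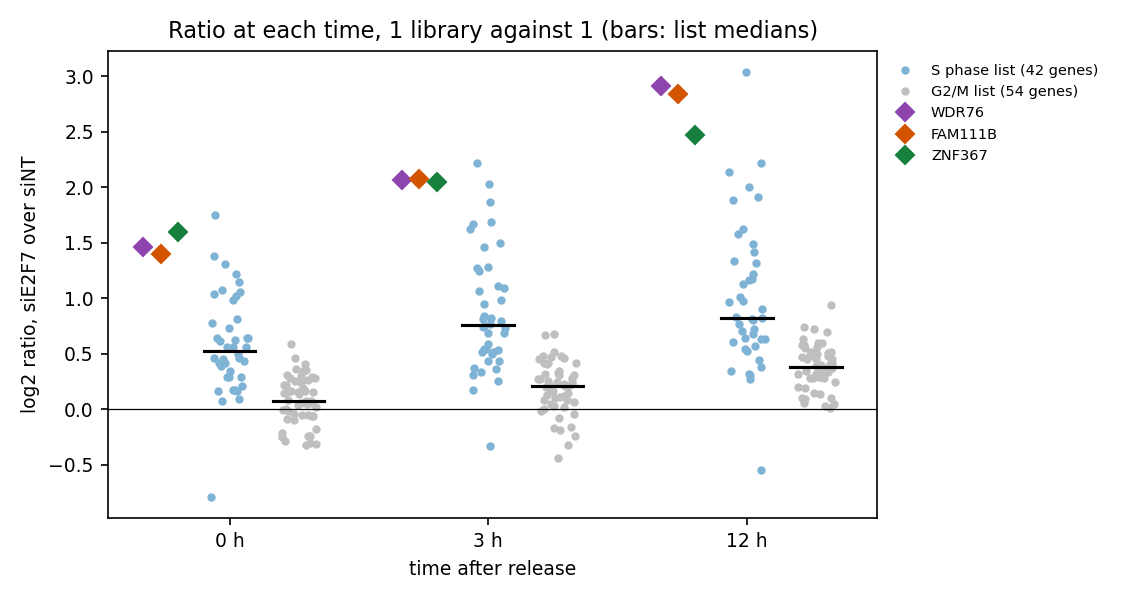
Log2 ratio of siE2F7 over siNT (y axis) at 0, 3 and 12 h (x axis) for WDR76, FAM111B and ZNF367 (diamonds), 42 genes of the S phase list (blue) and 54 of the G2/M list (grey), with black bars at the list medians. The 3 genes, chosen for high ratios, lie between 1.40 and 2.91, above both list medians at each time (0.83 at most).

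Within an arm the 3 genes were followed over time. These differences are values with no test, as each time had 1 library and the sources do not say if the tables of the 3 times had a common scaling; the median gene differed by -0.05 in siE2F7 and -0.03 in siNT between 12 and 0 h. In siE2F7 WDR76 was at 82.7% of its 0 h level at 12 h, FAM111B at 46.6% and ZNF367 at 78.6%. In siNT the shares were 29.4% for WDR76, 17.0% for FAM111B and 42.5% for ZNF367. All 3 thus ended lower at 12 h in both arms, by less in siE2F7.

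On the log2 scale the difference between 12 and 0 h was -0.27 for WDR76, -1.10 for FAM111B and -0.35 for ZNF367 in siE2F7, and -1.72, -2.55 and -1.22 in siNT in the same order of genes. Of all genes 2.57% were at least 2-fold lower at 12 h than at 0 h in siE2F7, FAM111B among them, and 2.52% in siNT, where all 3 were. Only 11 genes of 11886 had a lower value than FAM111B in siNT. The S phase list had a median of -0.22 in siE2F7 and -0.72 in siNT. In siE2F7 20 of its 42 genes lay below WDR76 and 16 below ZNF367, while CCNE2 (cyclin E2) and UNG (a uracil glycosylase) were the 2 below FAM111B. In siNT CCNE2 alone lay below WDR76 and below FAM111B, and 4 genes lay below ZNF367 (CCNE2, MCM6, UNG and GINS2). The G2/M list went the other way in both arms, with medians of 1.01 in siE2F7 and 0.76 in siNT. These comparisons share libraries with the ratios that chose the genes.

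**Figure D3:**
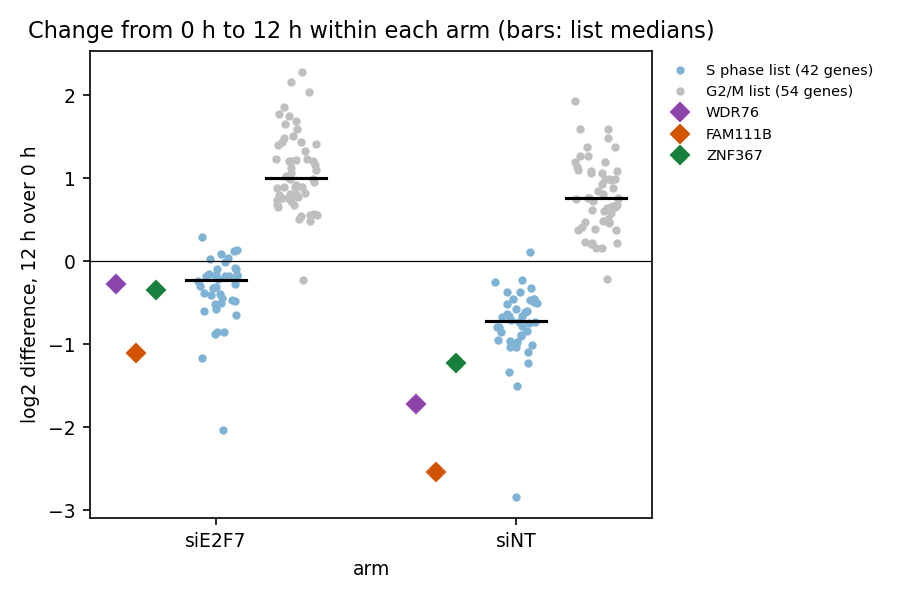
Log2 difference between 12 h and 0 h (y axis) in siE2F7 and siNT (x axis) for the 3 genes (diamonds), the S phase list (blue) and the G2/M list (grey), with black bars at the list medians. WDR76 and ZNF367 lie near the S phase median (-0.22) in siE2F7 and below it (-0.72) in siNT, and FAM111B lies below it in both arms.

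The early step differed among the 3. Between 0 and 3 h FAM111B differed by -0.18 in siE2F7 and by -0.86 in siNT. WDR76 differed by 0.32 in siE2F7 and by -0.28 in siNT, and ZNF367 by 0.31 in siE2F7 and by -0.14 in siNT. The median gene differed by -0.05 in siE2F7 and by -0.10 in siNT over this step. In siNT ZNF367 thus lay near the median gene, with 43.95% of genes lower. By FPKM WDR76 and ZNF367 were highest at 3 h in siE2F7 and at 0 h in siNT, there only narrowly for ZNF367. FAM111B was highest at 0 h in both arms.

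The proportions between the 3 transcripts were set side by side in each library. FAM111B had 6.50, 4.60 and 3.67 times the FPKM of WDR76 in siE2F7 at 0, 3 and 12 h, and 6.87, 4.62 and 3.97 times in siNT. ZNF367 had 2.48, 2.46 and 2.36 times the FPKM of WDR76 in siE2F7, and 2.27, 2.51 and 3.29 times in siNT. FAM111B over WDR76 was thus lower at each later time in both arms, and ZNF367 over WDR76 was highest in siNT at 12 h, where WDR76 was at its lowest.

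Likeness of profile was measured as the root mean square difference between log2 levels over the 6 libraries, each gene centred on its own mean, among genes averaging 1 FPKM or more. WDR76 and ZNF367 were each other's closest gene, at 0.16. The median gene lay at 1.24 from WDR76, 1.36 from FAM111B and 1.14 from ZNF367. After ZNF367, the genes closest to WDR76 were NTN1, which encodes the guidance cue netrin 1 (0.22), MCM6 (0.26), the activator E2F1 (0.32) and FAM111B (0.34). Closest to ZNF367 after WDR76 were NTN1 (0.22), E2F1 (0.25), MCM5 (0.27) and MCM6 (0.27).

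FAM111B stood somewhat apart. Its closest gene was TP73, a relative of p53 (0.20), followed by NTN1 (0.32), WDR76 (0.34), ELAVL2, an RNA-binding protein of the Hu family (0.43), and CCNE2 (0.44), with ZNF367 in place 6. TP73 had 10.1, 8.76 and 3.62 FPKM in siE2F7 at 0, 3 and 12 h, against 4.18, 2.54 and 0.520 FPKM in siNT. NTN1, the gene on all 3 lists, had 16.6, 13.9 and 10.3 FPKM in siE2F7, against 5.68, 4.05 and 1.77 FPKM in siNT. The tables give TP73 the same locus as its antisense entry TP73-AS1, CCNE2 the same as INTS8, and strand use in counting is not stated, so the values of TP73 and CCNE2 are uncertain. These profiles hold the ratios that chose the 3 genes, so genes with large ratios are favoured.

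**Figure D4:**
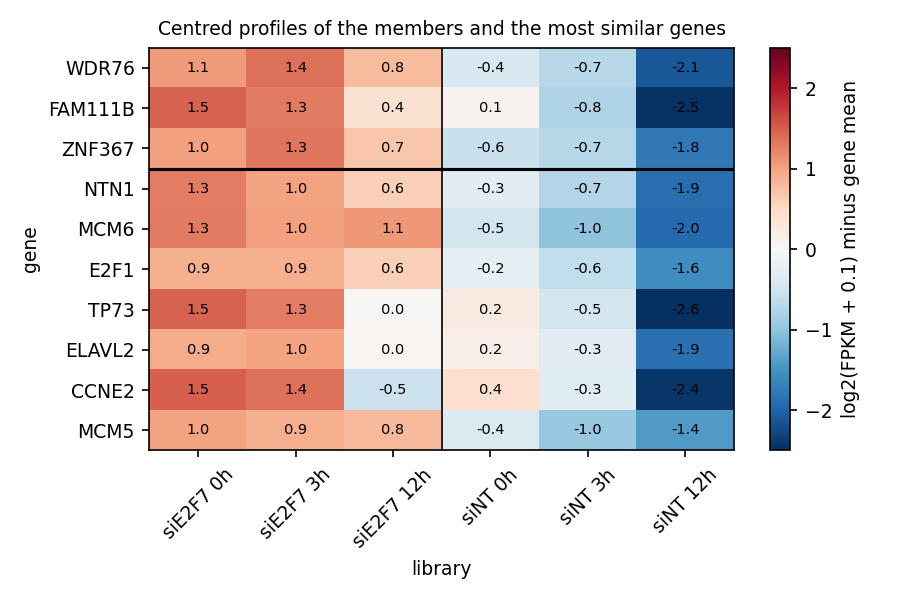
Log2(FPKM + 0.1) minus the gene's mean over the 6 libraries (colour and printed value) for the 3 genes (above the line) and the genes closest to them (below it), in siE2F7 and siNT at 0, 3 and 12 h (columns). In every gene the siNT library of 12 h is the lowest.

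E2F, DP and pocket protein genes were tested across the times, and whether they act on the 3 genes was not tested. Of 12 measured 5 rose and 1, the targeted E2F7, fell by 1.37 ± 0.10 (SE, limma, adjusted p = 0.001). Over all genes 6.76% rose and 7.13% fell. E2F8 is also counted in the S phase list. The activators E2F1 and E2F2 and the repressor E2F8 rose. E2F2 had 26.3, 29.7 and 27.0 FPKM in siE2F7 at 0, 3 and 12 h, against 5.04, 1.89 and 1.30 FPKM in siNT. E2F8 had 11.4, 11.8 and 11.7 FPKM in siE2F7, against 4.84, 3.65 and 2.84 FPKM in siNT. E2F1 had 66.5, 67.4 and 54.2 FPKM in siE2F7, against 30.1, 23.4 and 12.0 FPKM in siNT. Like the 3 genes, E2F1, E2F2 and E2F8 had their largest ratio of siE2F7 over siNT at 12 h, where siNT was lowest. E2F3 rose by 0.44 ± 0.08 (adjusted p = 0.014; 0.059 without 0 h) and the DP partner TFDP1 by 0.25 ± 0.06 (adjusted p = 0.036; 0.096 to 0.14 when 1 time was left out). E2F4, E2F6, TFDP2, RB1, RBL1 and RBL2 did not pass, with estimates of -0.22 to 0.45, though RBL1 was called with median-ratio scaling (adjusted p = 0.042).

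Known partners and a paralog were tested next. FAM111A, which sits beside FAM111B, binds PCNA and helps forks pass protein obstacles, had 59.5, 55.3 and 60.5 FPKM in siE2F7 at 0, 3 and 12 h, against 43.8, 38.9 and 26.5 FPKM in siNT. FAM111A rose by 0.71 ± 0.14 (SE; limma, adjusted p = 0.017, and 0.069 without the variance trend), in 3 of 3 times. FAM111B had 2.14, 2.03 and 0.979 times the FPKM of FAM111A in siE2F7 at 0, 3 and 12 h, and 1.10, 0.685 and 0.309 times in siNT. The paralogs were thus near parity at 0 h in siNT, and FAM111B was the lower one there by 12 h.

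Of the 12 genes of the partner and paralog list, 5 rose and 1 fell, and 6 did not pass, with a median of 0.17. Over all genes 6.76% rose and 7.13% fell. PCNA and HELLS are also counted in the S phase list, and FAM111A among the neighbours below. HELLS, a chromatin remodeller found with WDR76, rose by 0.87 ± 0.11 (limma, adjusted p = 0.0036). PCNA, the sliding clamp, rose by 1.10 ± 0.14 and RFC1, the large subunit of the clamp loader, by 0.60 ± 0.07 (adjusted p = 0.0042 and 0.0029); PCNA shares its locus with the antisense entry PCNA-AS1, and its reads may be mixed with those of that entry. Most subunits of the ligase that WDR76 joins did not pass. DDB1, its adaptor, stood at 0.00 ± 0.06 (adjusted p = 0.98), the RING subunit RBX1 at -0.01 ± 0.09 (adjusted p = 0.96) and the scaffold CUL4B at 0.12 ± 0.09 (adjusted p = 0.39). The scaffold CUL4A fell by 0.31 ± 0.07 (adjusted p = 0.026), but not with any single time removed (adjusted p = 0.053 to 0.10). RAS proteins are reported substrates of WDR76, a relation between proteins that RNA levels do not measure. The NRAS transcript rose by 0.31 ± 0.06 (limma, adjusted p = 0.023, and 0.062 to 0.082 when 1 time was left out). HRAS had 0.11 ± 0.07 (adjusted p = 0.31). SIRT1, a deacetylase, had 0.21 ± 0.08 (adjusted p = 0.13).

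The symbol families of WDR76 and ZNF367 were counted for comparison. Over all genes 6.76% rose and 7.13% fell. Of 52 other genes named WDR, 2 rose (3.85%) and 3 fell (5.77%), with a median of -0.05. WDR1, an actin regulator, was highest at 0.48 ± 0.06 (limma, adjusted p = 0.0042). Of 354 other genes named ZNF, 8 rose (2.26%) and 4 fell (1.13%), with a median of -0.01. None had a mean ratio as high as ZNF367, which was chosen for its high ratio. ZNF653 was highest at 0.70 and did not pass (adjusted p = 0.13).

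Genes lying next to the 3 were taken from the coordinates of the tables, as the 2 nearest listed genes on each side. Of these 12 neighbours 2 rose and 4 fell, while over all genes 6.76% rose and 7.13% fell. MFAP1, a splicing factor, lies 2.16 kb before the WDR76 locus on the opposite strand, so the pair is arranged head to head. MFAP1 had 16.9, 15.2 and 16.0 FPKM in siE2F7 at 0, 3 and 12 h, against 12.7, 13.1 and 13.2 FPKM in siNT. MFAP1 rose by 0.30 ± 0.08 (SE; limma, adjusted p = 0.041), but not with any single time removed (adjusted p = 0.081 to 0.16). On the other side FRMD5, a FERM-domain protein, lies 5.11 kb past WDR76 on the opposite strand. FRMD5 had 4.49, 4.17 and 7.78 FPKM in siE2F7, against 7.29, 7.59 and 14.4 FPKM in siNT, and fell by 0.81 ± 0.09 (adjusted p = 0.0029). FRMD5 and LOC728758, which did not pass (-0.08 ± 0.18, adjusted p = 0.81), are given the same locus in the tables, so the values of both are uncertain. The other neighbour, MIR1282, a microRNA precursor entry that shares its locus with 3 further entries, stood at 0.05 ± 0.18 (adjusted p = 0.87).

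At FAM111B the nearest gene was FAM111A, described above, which lies 15.4 kb further along the same strand. DTX4, a ubiquitin ligase of the Deltex family 44.9 kb away, fell by 0.70 ± 0.18 (limma, adjusted p = 0.041; 0.059 to 0.12 when 1 time was left out). On the other side the nearest listed gene was ZFP91, 481 kb away, a zinc finger ubiquitin ligase, which fell by 0.54 ± 0.07 (adjusted p = 0.0036). LPXN, which encodes leupaxin, did not pass (-0.31 ± 0.16, adjusted p = 0.23).

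At ZNF367 the nearest gene was SLC35D2, a nucleotide sugar transporter, which lies 2.23 kb past the end of ZNF367 on the same strand. SLC35D2 had 7.64, 8.02 and 6.61 FPKM in siE2F7 at 0, 3 and 12 h, against 13.2, 10.2 and 11.3 FPKM in siNT, and fell by 0.63 ± 0.11 (SE; limma, adjusted p = 0.011), in 3 of 3 times. HABP4, a hyaluronan and RNA binding protein, the phosphatase CDC14B and C9orf102, which shares its locus with LINC00476, did not pass, at -0.25 ± 0.14, 0.03 ± 0.11 and -0.06 ± 0.15 (adjusted p = 0.29, 0.89 and 0.81). No neighbour of the 3 loci had an estimate above that of FAM111A.

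**Figure D5:**
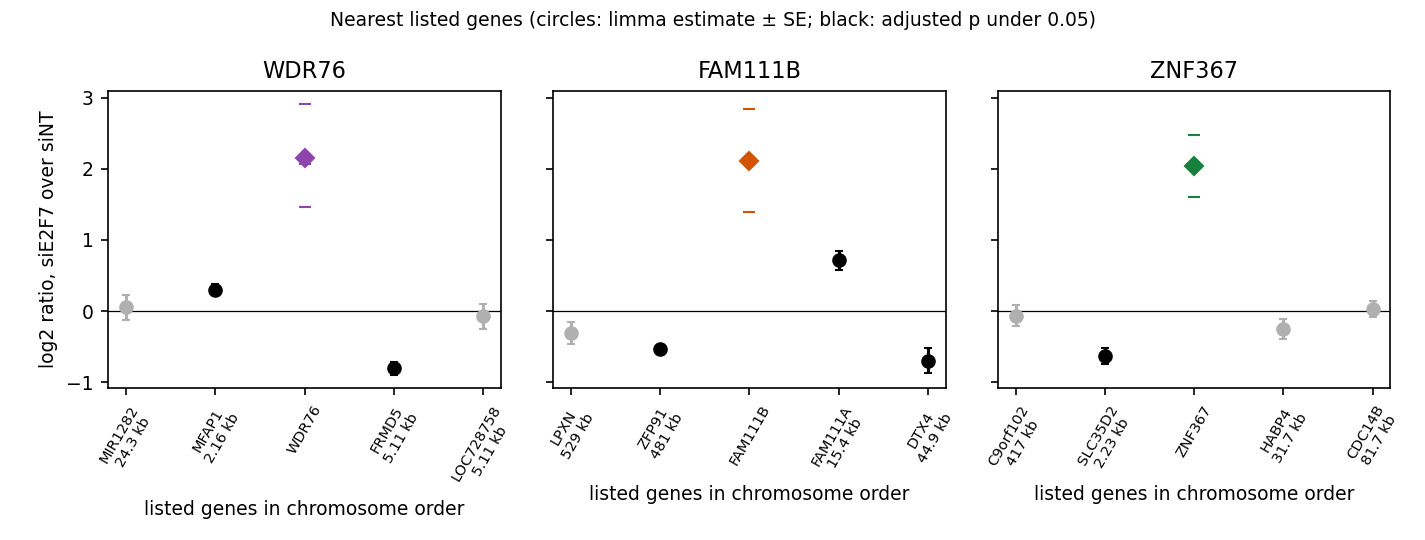
Log2 ratio of siE2F7 over siNT (y axis) of the nearest listed genes on each side of WDR76, FAM111B and ZNF367, in chromosome order with the distance to the member (x axis). Circles are limma estimates ± SE, black where the adjusted p was under 0.05; diamonds are the members' means and dashes their values at 0, 3 and 12 h. The neighbours lie between -0.81 and 0.71, and the members, chosen for high ratios, at 2.04 or more.

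The promoters of FAM111A and MFAP1 are printed because these are the 2 neighbours that rose, though MFAP1 lost its call with any single time removed. They are RefSeq windows of GRCh38.p14, searched and marked as for ZNF367, at chr11:59144612-59144911 (plus strand) and chr15:43824641-43824940 (minus strand).
FAM111A: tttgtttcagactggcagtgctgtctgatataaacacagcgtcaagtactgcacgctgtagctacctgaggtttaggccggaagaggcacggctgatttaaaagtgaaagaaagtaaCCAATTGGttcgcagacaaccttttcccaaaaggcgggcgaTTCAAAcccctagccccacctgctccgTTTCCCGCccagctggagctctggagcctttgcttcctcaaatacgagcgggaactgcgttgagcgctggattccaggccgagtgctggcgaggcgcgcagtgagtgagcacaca
MFAP1: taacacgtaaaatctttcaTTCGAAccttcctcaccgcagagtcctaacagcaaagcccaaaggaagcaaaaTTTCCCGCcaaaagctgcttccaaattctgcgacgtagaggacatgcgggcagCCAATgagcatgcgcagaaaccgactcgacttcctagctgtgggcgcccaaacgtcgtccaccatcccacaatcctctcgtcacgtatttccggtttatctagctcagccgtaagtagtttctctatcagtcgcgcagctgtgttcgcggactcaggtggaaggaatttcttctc
FAM111A has a second window, from chr11:59142606-59142905, which held none of the 3 elements and is not printed. The printed one held 1 E2F match at -65 to -58, 1 CHR match at -92 to -87 and 2 CCAAT matches that overlap each other. The MFAP1 window held 1 E2F match at -178 to -171, 1 CHR match at -231 to -226 and 1 CCAAT match at -125 to -121. Windows of the other neighbours are not shown, so these 2 give no comparison between genes that rose and genes that did not. A check of such matches by call is void and is not given, because 594 of the 803 genes that rose (74.0%) and 603 of the 847 that fell (71.2%) had a window in the table, and at least 80% was required.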

How the data were processed

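RNA-seq tables of 6 U2OS libraries were used, 1 for each arm and time. Per the file headers the values are FPKM with columns named as Cuffdiff names them, as the authors deposited them; the submitters' processing notes name CASAVA 1.8 and hg19 (GRCh37). No source used here names the aligner, the annotation or the filters. The tables give neither counts nor gene lengths, so depth could not be recovered from low values. Each time was listed as its own pair, and genes were joined by identifier (13161 at any time, 11886 at all 3). In every pair the higher library was at 1.26 FPKM or more.

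Arms were compared by limma 3.58.1 under R 4.3.3. The model took log2(FPKM + 0.1) values and had a block for time, a variance trend and Benjamini-Hochberg adjustment over all 11886 genes (2 residual and 5.4 prior degrees of freedom). An error after ± is the SE of that fit, unless given as SD. P-values reflect only how these libraries scatter, which may be technical. On simulated data the share of false calls was above the 5% that the adjustment aims for, so calls near the threshold are less certain. Strand and exon counts come from GENCODE 29 and promoters from RefSeq (GRCh38.p14). Genes named are the 3 members, E2F genes, the partner list, the nearest neighbours, the 5 closest profiles per member, the genes next in rank, and the 5 highest and lowest of each phase list. Members and lists were chosen with earlier results of these data known. Alternatives changed the pseudocount (1 or 0.01), filter, scaling, times used, block and trend. One gene of the partner list is counted but not reported by name here.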

Additional observations from a re-analysis of the deposited data

Results flagged for a closer look

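Between 0 and 3 h the FPKM of WDR76 and ZNF367 moved in opposite directions in the arms, though ZNF367 in siNT moved little more than the median gene. The log2 difference of WDR76 was 0.318 in siE2F7 and -0.281 in siNT, and that of ZNF367 was 0.305 in siE2F7 and -0.143 in siNT. The median gene had -0.053 in siE2F7 and -0.096 in siNT. Each value compares 1 library with 1, and the difference between the arms was not tested.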

How the results depend on the processing

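The mean log2 ratios of the 3 genes ranged over 12 settings from 1.76 to 2.49 (WDR76), 1.73 to 2.46 (FAM111B) and 1.82 to 2.26 (ZNF367). The extremes all came from leaving 1 time out, which reuses the 3 ratios that gave the SD. They were bound to lie within 1 SD of the mean, so this is no check on it. The block, the trend and the filter could not change these means. Scaling by median ratios divided the levels by 0.977 to 1.04. Of the 5 closest genes, 4 or 5 were shared under the 2 other settings tried. The 7-letter E2F form, the 8-letter form without its first letter, gave 2 matches in ZNF367 and could not have given fewer. Without the time block 15 genes rose and 17 fell, with 5 and 0 in the S phase list, 0 rising in the G2/M list, 0 and 0 in the partner list, the WDR and ZNF families and the neighbours, and 2 and 0 in the E2F list. Without the variance trend 400 rose and 452 fell; 0 fell in the S phase list, 7 rose in the G2/M list, 3 and 0 were called in the partner list, 0 of the WDR family fell, 3 and 2 of the ZNF family were called and 0 neighbours rose. With 1 time left out, 332 to 557 genes rose and 431 to 560 fell. The ranges then were 8 to 14 rising and 0 to 1 falling in the G2/M list, 0 falling in the partner list, 0 falling in the WDR family, 0 to 3 rising and 0 to 2 falling in the ZNF family, 3 to 4 rising in the E2F list (alternatives for this list were chosen after seeing the data) and 1 rising among neighbours. The WDR family had 5 rising and 1 falling with median-ratio scaling, 4 rising with quantile normalization, 1 falling with a pseudocount of 0.01 and 1 falling with genes listed at 2 or 3 times let in; the last setting and quantile normalization each left 2 of the ZNF family falling. The cause of these shifts was not tested. The fit reported pairs the arms by time, and the labels carry no replicate numbers for any other pairing. Depth is unknown, so no counting error could be given.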
